A study of Triticum aestivum with 24 samples.

Results

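The 4 genes described here code for enzymes of nitrogen assimilation in wheat: nitrite reductase (NiR), plastid glutamine synthetase (GS2), a glutamate synthase (NADH-GOGAT-3B) and glutamate dehydrogenase (GDH). They were chosen by name, as enzymes of this pathway, from the 26 genes of the deposited expression sheet; the rule uses no expression value, although earlier results of these data were known. Expression was measured by RNA sequencing of 14-day post anthesis flag leaves and of stems, taken between the first and the second internode at mid-morning from irrigated, field grown spring wheat. Standard height plants carried the wild-type allele Rht-B1a in the cultivar Fortuna. Semi-dwarf plants carried the mutant allele Rht-B1b in the same Fortuna background, and the labels name no other difference in treatment. Each of the 4 combinations of line and tissue had 3 biological replicates, and the 12 tissue samples are listed by the submitters as 24 samples, 2 for each column of values. One near isogenic line stands for each allele, so the allele and any other donor segment left in the Rht-B1b line cannot be told apart.

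Nitrate taken up by the plant is reduced to nitrite in the cytosol, and NiR then reduces nitrite to ammonium inside plastids. GS2 binds ammonium to glutamate to make glutamine, and in leaves it is best known for recapturing the ammonium set free by photorespiration. Glutamate synthase passes the amide nitrogen of glutamine to oxoglutarate, which yields glutamate, and plants hold a ferredoxin-dependent form typical of green tissue and an NADH-dependent form better known from non-green and vascular tissue. GDH, a mitochondrial enzyme, can add ammonium to oxoglutarate or release it from glutamate, and is generally linked to the breakdown of glutamate. During grain fill, leaves and stems break down protein and send the nitrogen to the grain mainly as amino acids.

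The values are RPKM, reads per kilobase of a gene's listed sequence relative to the sequencing depth of the sample, and they were scaled by the authors so that actin had the value 1432.5 in all 12 tissue samples. Read counts and depth are unknown, so precision rests on the spread between replicates. The listed sequences are KY214455 for NiR, KY640323 for GS2, KC960544 for NADH-GOGAT-3B and KU869729 for GDH. The title of KC960544 in the study's gene list is that of a ferredoxin-dependent glutamate synthase while its symbol names the NADH-dependent form, and which of these it measures was not settled here. No chromosome position is given because no genome build is named in the sources used here. Reads were matched only where identical to the listed sequence, so transcripts of other gene copies may be partly counted or missed. In bulk tissue, fewer cells of a type and less RNA per cell cannot be told apart.

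The labelled tissues were checked with 4 markers of photosynthetic tissue, 3 sequences of the RuBisCO small subunit (rbcS) and the large subunit (rbcL). Each of the 4 was higher in every leaf than in every stem. Their summed level was 1425540 to 3583390 RPKM in the leaves and 129519 to 235133 RPKM in the stems, nearly all of it rbcS, because rbcL was listed at no more than 1.79 RPKM. In both lines, replicate 1 had the highest geometric mean of 22 genes among the leaves, at 1896 RPKM in Rht-B1a and 1776 RPKM in Rht-B1b. The other 4 leaves had 1205 to 1415 RPKM. These 22 genes include actin, rbcL and the 4 genes described here, and leave out the rbcS sequences and Rht-B1.

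NiR and GS2 were high in flag leaves and NADH-GOGAT-3B and GDH were high in stems, in both lines. Over both lines, mean levels were 9.08 times higher in leaves than in stems for NiR and 11.7 times higher for GS2, and they were 5.70 times higher in stems than in leaves for NADH-GOGAT-3B and 5.27 times higher for GDH. For each of the 4 genes the 6 leaf values and the 6 stem values did not overlap.

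NiR, the enzyme that makes ammonium from nitrite, was measured at 901, 1288 and 932 RPKM in Rht-B1a stems and at 1349, 1277 and 1242 RPKM in Rht-B1b stems. In flag leaves it was at 13349, 7463 and 10602 RPKM in Rht-B1a and at 13281, 8814 and 9973 RPKM in Rht-B1b. The lowest leaf value was thus several times the highest stem value, and within each tissue the lines overlapped. On the log2(RPKM + 1) scale NiR rose from stem to leaf by 3.31 in Rht-B1a (standard error 0.27, adjusted p = 1.28e-11 from limma) and by 3.03 in Rht-B1b (standard error 0.27, adjusted p = 8.13e-11 from limma).

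GS2, the glutamine-forming step, was the most abundant of the 4 in every sample. Its values were 9391, 11114 and 9675 RPKM in Rht-B1a stems and 14826, 11673 and 18843 RPKM in Rht-B1b stems. In leaves they were 189839, 120558 and 85625 RPKM in Rht-B1a and 216989.5, 135848 and 135135 RPKM in Rht-B1b. Replicate 1 was the highest leaf of each line, as it was for the geometric mean of 22 genes. GS2 rose from stem to leaf by 3.64 on the log2 scale in Rht-B1a (standard error 0.29, adjusted p = 1.28e-11 from limma) and by 3.42 in Rht-B1b (standard error 0.29, adjusted p = 5.14e-11 from limma).

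NADH-GOGAT-3B, the glutamate-forming step, was measured at 2696, 3020.3 and 2739 RPKM in Rht-B1a stems and at 1151, 2570.5 and 2529 RPKM in Rht-B1b stems. In leaves it was at 409, 476 and 419.7 RPKM in Rht-B1a and at 472, 367 and 436 RPKM in Rht-B1b. Leaf values were low and close together in both lines, and the stem of Rht-B1b replicate 1 stood well below the other 5 stems. The gene fell from stem to leaf by 2.69 on the log2 scale in Rht-B1a (standard error 0.28, adjusted p = 2.19e-09 from limma) and fell by 2.21 in Rht-B1b (standard error 0.28, adjusted p = 7.69e-08 from limma).

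GDH, the reversible glutamate enzyme, was measured at 2154, 1541 and 2757 RPKM in Rht-B1a stems and at 3684, 3868 and 3498 RPKM in Rht-B1b stems. In leaves it was at 703, 391 and 383 RPKM in Rht-B1a and at 782, 572 and 486 RPKM in Rht-B1b. All 3 Rht-B1b stems lay above all 3 Rht-B1a stems, while the leaves of the lines overlapped. GDH fell from stem to leaf by 2.14 on the log2 scale in Rht-B1a (standard error 0.29, adjusted p = 1.87e-07 from limma) and fell by 2.61 in Rht-B1b (standard error 0.29, adjusted p = 5.15e-09 from limma).

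**Figure D1:**
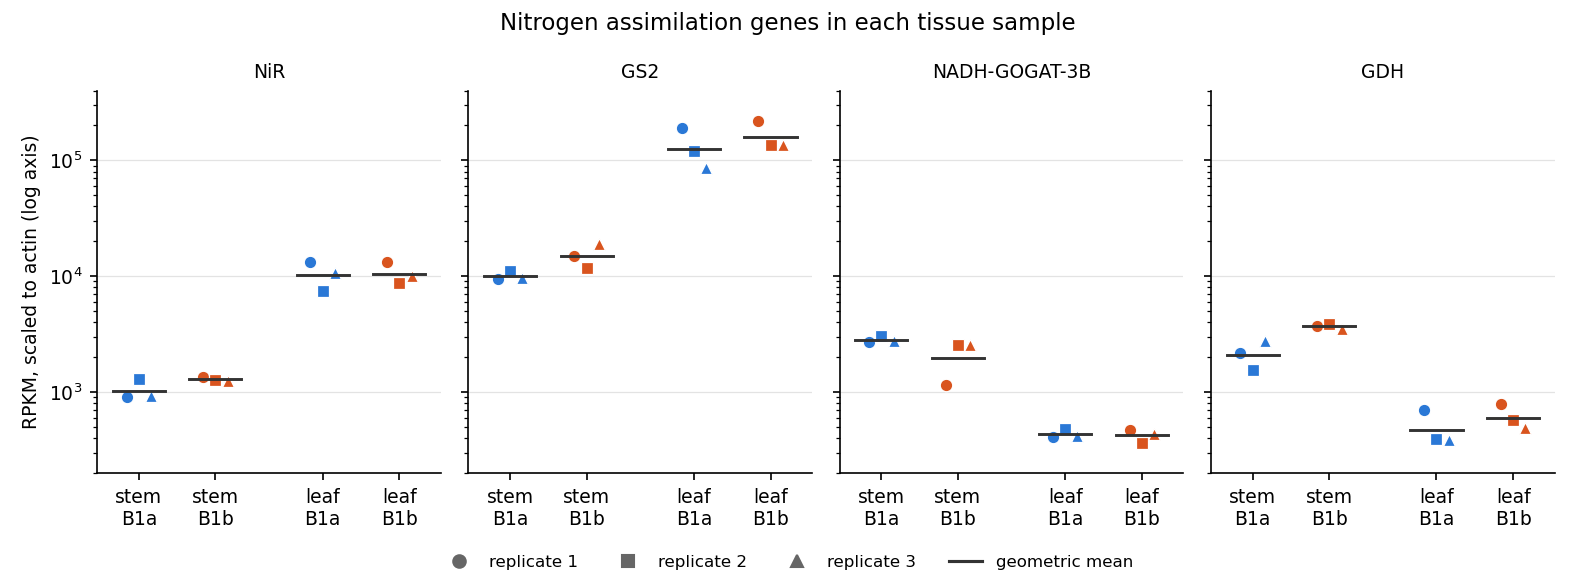
Expression of NiR, GS2, NADH-GOGAT-3B and GDH in each tissue sample, in RPKM scaled to actin on a shared log axis, by tissue and line (B1a, Rht-B1a; B1b, Rht-B1b); symbols mark the 3 replicates of a group and bars their geometric mean. NiR and GS2 lie higher in all 6 leaves than in all 6 stems, and NADH-GOGAT-3B and GDH lie lower in all 6 leaves.

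The order of the 4 genes changed between tissues. In Rht-B1a stems the order of mean levels was GS2 (10060 ± 924 RPKM, SD, n = 3), NADH-GOGAT-3B (2819 ± 176), GDH (2151 ± 608) and NiR (1040.3 ± 215). NADH-GOGAT-3B and GDH were not separated there, since their ranges overlapped and 2 of 3 samples followed the order. In Rht-B1b stems GDH stood second (3683 ± 185 RPKM, SD, n = 3), behind GS2 (15114 ± 3594) and ahead of NADH-GOGAT-3B (2083 ± 808) and NiR (1289 ± 54.4). There the ranges of NADH-GOGAT-3B and NiR overlapped.

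In leaves both lines had the order GS2, NiR, GDH and NADH-GOGAT-3B. In Rht-B1a leaves the means were 132007 ± 53042 RPKM (SD, n = 3), 10471 ± 2945, 493 ± 182 and 435 ± 36.1. In Rht-B1b leaves they were 162658 ± 47054 RPKM (SD, n = 3), 10689 ± 2318, 613 ± 152 and 425 ± 53.5. GDH and NADH-GOGAT-3B were not separated in Rht-B1a leaves, where only 1 of 3 samples followed the order, and were separated in 3 of 3 samples in Rht-B1b leaves. Among the 26 genes GS2 ranked 4 in every group, while NiR moved from rank 17 in stems to rank 8 in leaves.

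Over both lines in 1 contrast, NiR rose by 3.17 (standard error 0.19, adjusted p = 1.63e-14 from limma) and GS2 by 3.53 (standard error 0.21, adjusted p = 1.36e-14 from limma) from stem to leaf on the log2 scale. NADH-GOGAT-3B fell by 2.45 (standard error 0.20, adjusted p = 1.04e-11 from limma) and GDH fell by 2.38 (standard error 0.20, adjusted p = 2.66e-11 from limma). An exact two-sided permutation test of tissue labels within lines gave p = 0.005 for each of the 4 genes, the smallest it can give, and 0.00735 after adjustment over 25 genes. Tissue differences were common in this sheet. Of 25 genes other than actin, 76.0% passed the limma threshold of 0.05 over both lines, 76.0% in Rht-B1a and 72.0% in Rht-B1b, and 56.0% had tissue groups that did not overlap. The median difference was 0.43 over the 25 genes and 0.40 over the 4, of which 2 rose and 2 fell. Relative to the geometric mean of 22 genes the differences were 2.57 for NiR, 2.93 for GS2, -3.05 for NADH-GOGAT-3B and -2.98 for GDH, while the median of the 25 genes moved to -0.17.

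**Figure D2:**
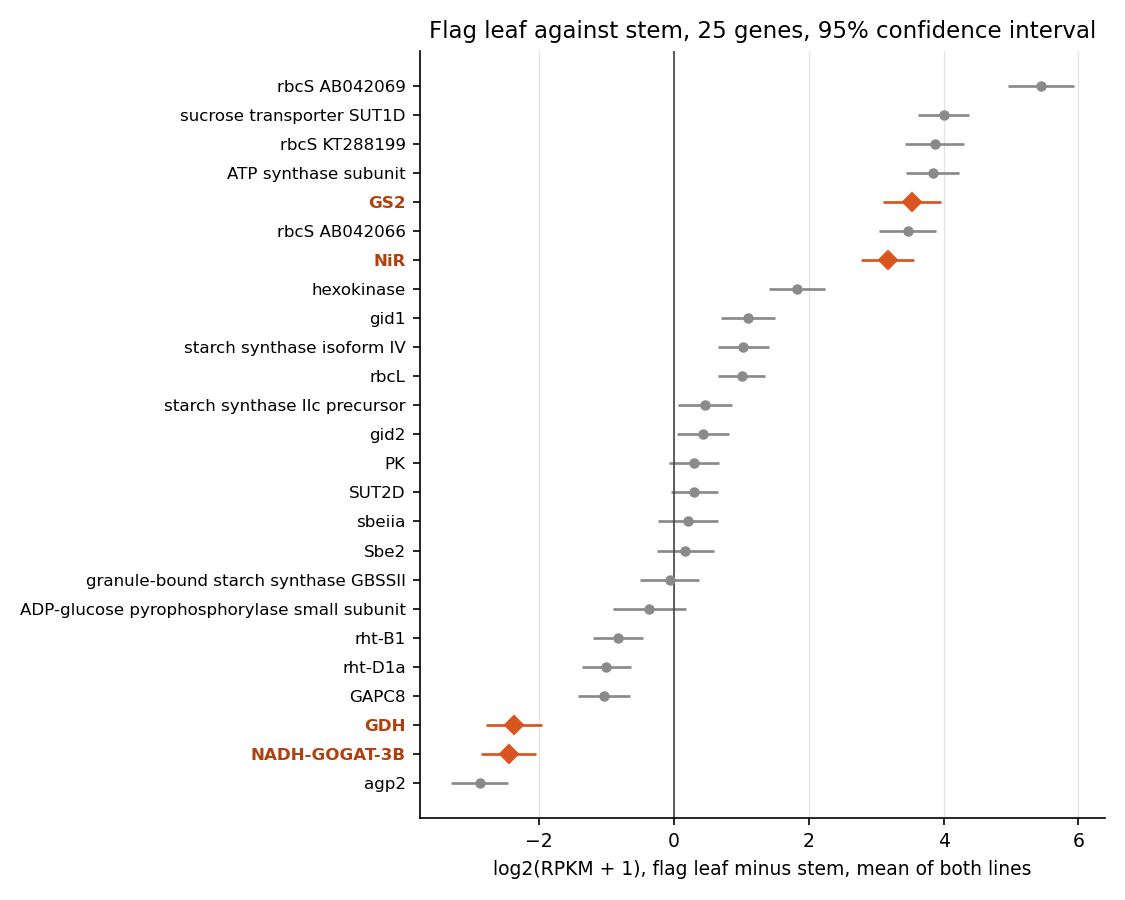
Difference between flag leaf and stem on the log2(RPKM + 1) scale, mean of both lines, for the 25 genes other than actin, with 95% confidence intervals from limma; diamonds mark the 4 nitrogen assimilation genes. GS2 at 3.53 and NiR at 3.17 lie among the genes highest in leaves, and NADH-GOGAT-3B at -2.45 and GDH at -2.38 have only agp2 at -2.88 below them.

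At the stem end of this order only agp2, a large subunit of ADP-glucose pyrophosphorylase in starch synthesis, had a larger fall than NADH-GOGAT-3B and GDH, at -2.88. GAPC8, the cytosolic glyceraldehyde-phosphate dehydrogenase that the study lists with nitrogen metabolism, fell from stem to leaf by 1.04 over both lines (standard error 0.18, adjusted p = 1.25e-05 from limma). Its Rht-B1b stems were at 95664 to 111790.2 RPKM and its leaves of both lines at 33279 to 47024 RPKM, which 1 Rht-B1a stem at 46503 RPKM overlapped. Between the lines GAPC8 differed by 0.66 in stems (standard error 0.17, adjusted p = 0.0572 from limma) and by 0.032 in leaves (standard error 0.14, adjusted p = 0.938 from limma). Its Rht-B1b stems lay above its Rht-B1a stems without overlap, and its unadjusted p in stems was under 0.05.

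The genes whose levels followed each of the 4 most closely over the 12 tissue samples were found by Pearson's r of log2(RPKM + 1), given as a description. The 12 points share the actin scaling and fall into a leaf cluster and a stem cluster, so r mostly restates the tissue difference. For NiR they were an ATP synthase subunit (r = 0.990) and the sucrose transporter SUT1D (r = 0.988). For GS2 they were 2 of the rbcS sequences, AB042066 and KT288199 (r = 0.996 for each). For GDH they were agp2 (r = 0.955) and GAPC8 (r = 0.954), and for NADH-GOGAT-3B they were agp2 (r = 0.867) and GDH (r = 0.866).

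The photosynthetic markers moved with the same contrast, by 3.46 to 5.44 on the log2 scale for the 3 rbcS sequences over both lines, and their part in the changes of NiR and GS2 was not tested. Values per 1000 RPKM of the rbcS sequence AB042066, a ratio chosen after the levels had been seen, set the genes side by side. GS2 was at 114, 127 and 111 in Rht-B1a stems, 116, 102 and 139 in Rht-B1b stems, 101, 138 and 114 in Rht-B1a leaves and 135, 120 and 134 in Rht-B1b leaves. These ranges overlapped between all 4 groups. NiR was at 9.16 to 14.8 in the 6 stems and at 7.13 to 14.1 in the 6 leaves, which also overlapped. NADH-GOGAT-3B was at 8.97 to 34.6 in stems and at 0.218 to 0.559 in leaves, and GDH was at 17.7 to 33.9 in stems and at 0.375 to 0.511 in leaves. The overlaps of GS2 and NiR are stated for AB042066 only, which had the highest r with GS2 and rose least of the 3 rbcS sequences. The rbcS sequence AB042069 rose by 5.44 from stem to leaf, against 3.53 for GS2 and 3.17 for NiR. Ratios to AB042069 were not computed, but group means give their direction for GS2. In stems mean GS2 was above mean AB042069, at 10060 against 4825 RPKM in Rht-B1a and 15114 against 12848 RPKM in Rht-B1b. In leaves mean GS2 was below it, at 132007 against 308864 RPKM in Rht-B1a and 162658 against 399126 RPKM in Rht-B1b.

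Ratios between 2 genes of the same sample do not depend on the scaling to actin. Each gene stands for its own listed sequence and not for all RNA of its step in the pathway. The ratio of GS2 to NADH-GOGAT-3B was 3.48, 3.68 and 3.53 in Rht-B1a stems and 12.9, 4.54 and 7.45 in Rht-B1b stems. In leaves it was 464, 253 and 204 in Rht-B1a and 460, 371 and 310 in Rht-B1b. Geometric means were 3.56, 7.58, 288 and 375 in these 4 groups, so the lines differed far less than the tissues did. Over both lines the ratio was 63.3-fold higher in leaves than in stems (log2 difference 5.98), with an exact permutation p = 0.005 and an adjusted p of 0.00636 over the ratios of all 300 pairs of the 25 genes.

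The other ratios that set a leaf-high gene against a stem-high gene also separated the tissues without overlap. NiR to NADH-GOGAT-3B was 49.3-fold higher in leaves, NiR to GDH was 46.9-fold higher and GDH to GS2 was 60.1-fold lower, each with an exact permutation p = 0.005 and an adjusted p of 0.00636. Of the 300 ratios 84.0% passed the same threshold between tissues, so passing it is common here.

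The ratios within each side did not pass it with all 12 samples. NiR to GS2 had geometric means of 0.102 in Rht-B1a stems, 0.0869 in Rht-B1b stems, 0.0814 in Rht-B1a leaves and 0.0664 in Rht-B1b leaves. The tissue difference was -0.36 on the log2 scale (exact permutation p = 0.09, adjusted p = 0.103), with a 95% interval of -0.77 to 0.055 from limma over the 300 ratios. It passed without replicate 3 of the Rht-B1b stems (-0.46, adjusted p = 0.0472, exact permutation) and without replicate 3 of the Rht-B1a leaves (-0.51, adjusted p = 0.0122, exact permutation). GDH to NADH-GOGAT-3B differed between tissues by 0.074 (exact permutation p = 0.83, adjusted p = 0.841), with an interval of -0.43 to 0.58. For that ratio the lines went apart, with a leaf minus stem difference of 0.55 in Rht-B1a and -0.40 in Rht-B1b, and the test of their difference is given with the lines.

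**Figure D3:**
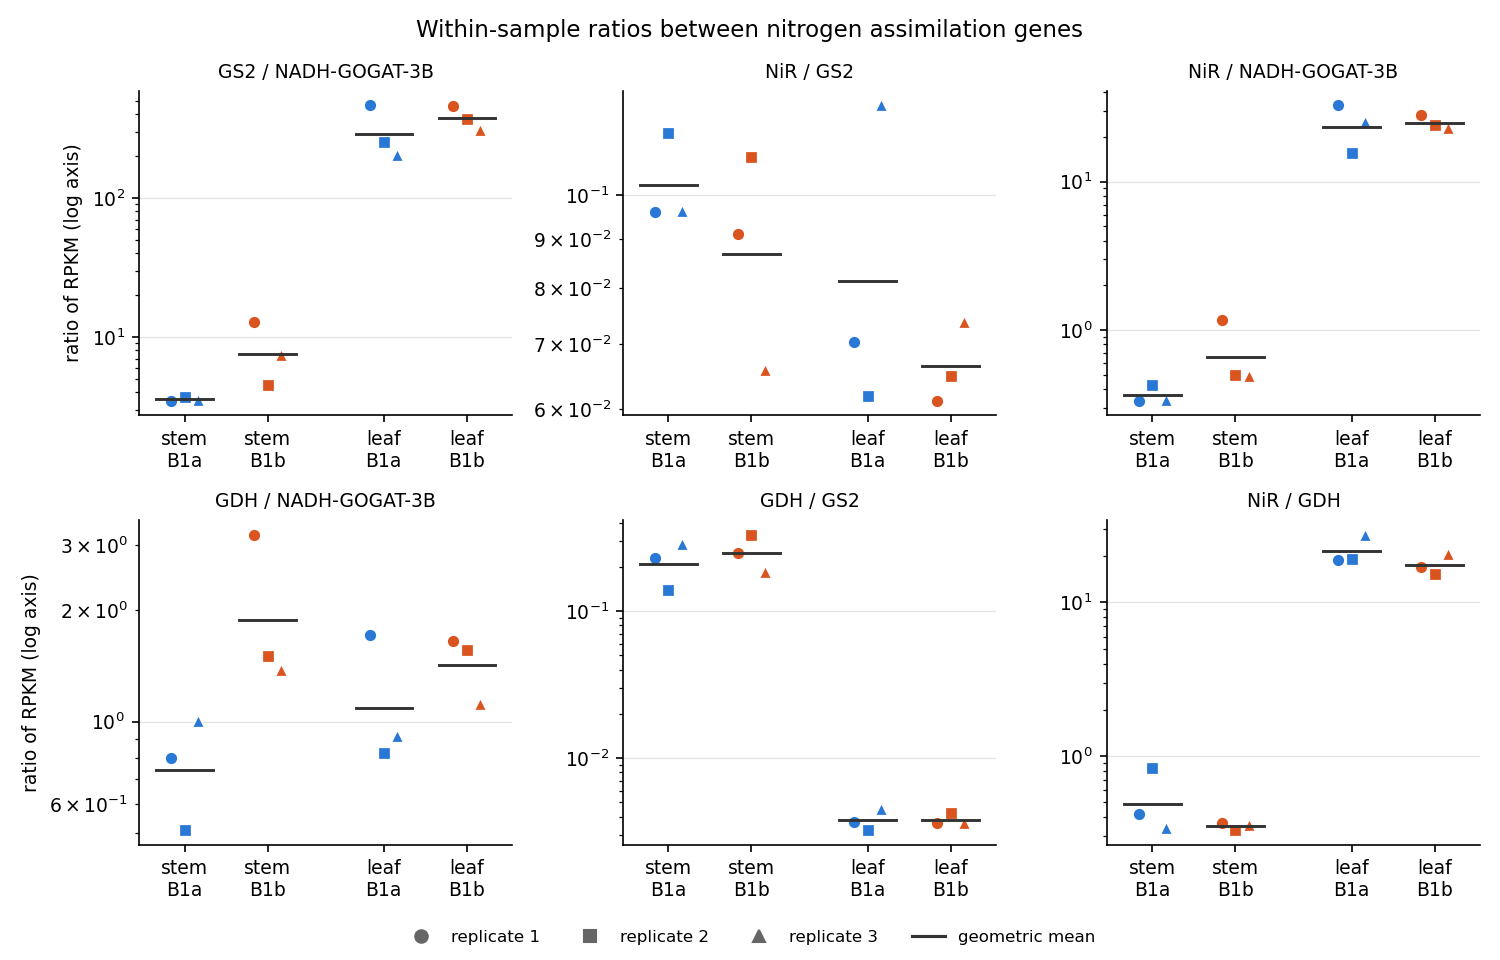
Within-sample ratios of RPKM for the 6 pairs among NiR, GS2, NADH-GOGAT-3B and GDH, on a log axis with its own range in each panel, by tissue and line; symbols mark the 3 replicates of a group and bars their geometric mean. GS2 / NADH-GOGAT-3B runs from 3.48 in a stem to 464 in a leaf, NiR / GS2 stays between 0.0612 and 0.124, and the 3 ratios over NADH-GOGAT-3B are higher in all 3 Rht-B1b stems than in all 3 Rht-B1a stems.

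The study asked whether Rht-B1b alters the expression of carbon and nitrogen metabolism genes. In stems GDH, GS2 and NADH-GOGAT-3B each had lines that did not overlap, GDH and GS2 with Rht-B1b above and NADH-GOGAT-3B with Rht-B1b below, while NiR overlapped. The mean of Rht-B1b was 1.71 times that of Rht-B1a for GDH, 1.50 times for GS2, 1.24 times for NiR and 0.739 times for NADH-GOGAT-3B. None of the 4 passed limma's adjusted threshold when the lines were compared in pairs of samples, and 1 of them, GDH, had an unadjusted p under 0.05. Of the 25 genes 32.0% passed that threshold in stems, 13 had an unadjusted p under 0.05 and 64.0% had lines that did not overlap. None of these counts sets the 4 genes apart.

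On the log2 scale the stem difference, Rht-B1b minus Rht-B1a, was 0.81 for GDH (standard error 0.23, adjusted p = 0.0593 from limma), with Rht-B1b higher in 3 of 3 pairs. Pairs are samples with consecutive numbers, and where the lines do not overlap, 3 of 3 follows under any pairing. With actin held constant, 22 of the 25 genes had a stem difference above 0. Genes with the same direction in every pair were not counted. Without the block for pairs the adjusted p of GDH was 0.0255 from limma, and without replicate 3 it was 0.0250 with a difference of 1.05. Over 11 alternatives the adjusted p from limma ran from 0.00588 to 0.653 for GDH, from 0.0299 to 0.989 for GS2, from 0.0839 to 0.741 for NiR and from 0.0503 to 0.363 for NADH-GOGAT-3B. For GS2 the difference was 0.56 (standard error 0.22, adjusted p = 0.119 from limma), higher in 3 of 3 pairs, and for NiR 0.33 (standard error 0.16, adjusted p = 0.174 from limma), higher in 2 of 3. Without 1 pair the GS2 difference ran from 0.36 (without replicate 3) to 0.81 (without replicate 2) and the NiR difference from 0.20 (without replicate 1) to 0.50 (without replicate 2). For NADH-GOGAT-3B it was -0.53 (standard error 0.28, adjusted p = 0.197 from limma), lower in 3 of 3 pairs, and it was the lowest of the 25 genes. Without replicate 1, whose Rht-B1b stem was at 1151 RPKM, it was -0.17. Exact permutation tests of 3 against 3 samples cannot go below p = 0.1, which GDH, GS2 and NADH-GOGAT-3B reached, and NiR had p = 0.3.

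These stem differences moved with the scaling. The median of the 25 genes was 0.56 above 0 in Rht-B1b stems with actin held constant, 0.45 for the 4 genes, and the geometric mean of 22 genes was 1064 to 1289 RPKM in Rht-B1b against 755 to 896 RPKM in Rht-B1a stems. Relative to that geometric mean the difference was 0.36 for GDH (adjusted p = 0.442 from limma), 0.11 for GS2 (adjusted p = 0.770 from limma) and -0.13 for NiR (adjusted p = 0.741 from limma), so NiR turned direction. Relative to the median gene NiR was at -0.24 and GS2 at -0.0058 (adjusted p = 0.989 from limma). With actin held constant GS2 was itself the gene at the median of 0.56, so this scaling brings it near 0 in advance. Relative to the geometric mean of 22 genes NADH-GOGAT-3B was at -0.98 (95% interval -1.54 to -0.42, adjusted p = 0.0503 from limma). Photosynthetic markers were higher too in Rht-B1b stems, 4 of 4 without overlap, where 64.0% of the 25 genes did not overlap. Their summed level was 185771 to 235133 RPKM against 129519 to 138056 RPKM. With limma and actin held constant, the rbcS sequences AB042066 (0.55) and KT288199 (0.83) passed, and AB042069 did not (1.37, adjusted p = 0.0593). The median of the 25 genes was 0.56 on that scale. Relative to the geometric mean of 22 genes or to the median gene, 0 of the 25 genes passed in stems, these markers included. Nor did rbcL pass (0.083, adjusted p = 0.473 from limma), at no more than 0.222 RPKM in stems. At such values the pseudocount of 1 holds the difference near 0, so this test cannot decide whether rbcL differed. Its mean in Rht-B1b stems was 1.52 times that in Rht-B1a stems. The part of the markers in the differences of GS2 and NiR was not tested.

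**Figure D4:**
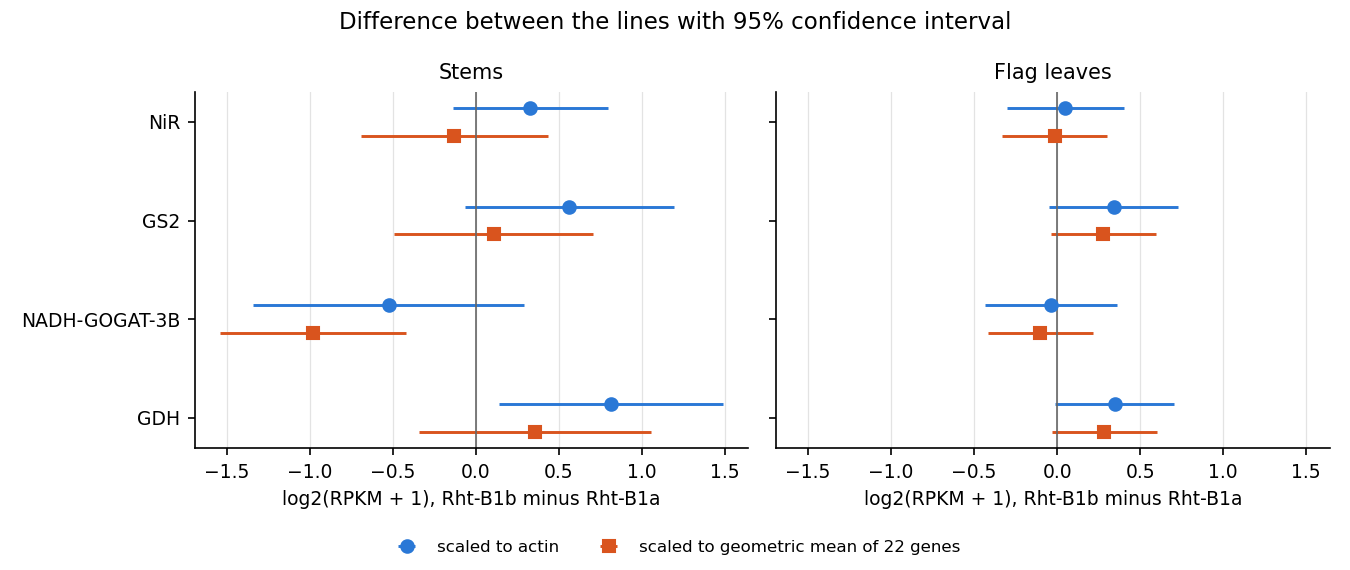
Difference between Rht-B1b and Rht-B1a on the log2(RPKM + 1) scale in stems and in flag leaves, with 95% confidence intervals from limma, for values scaled to actin (circles) and for values rescaled to the geometric mean of 22 genes (squares). In stems the 2 scalings give 0.81 and 0.36 for GDH, 0.56 and 0.11 for GS2, 0.33 and -0.13 for NiR, and -0.53 and -0.98 for NADH-GOGAT-3B; no adjusted p of these is under 0.05.

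In ratios, which carry no such scaling, NADH-GOGAT-3B was lower in Rht-B1b stems against each of the other 3 genes. GDH to NADH-GOGAT-3B was 0.799, 0.510 and 1.01 in Rht-B1a stems and 3.20, 1.50 and 1.38 in Rht-B1b stems, a 2.53-fold difference without overlap. GS2 to NADH-GOGAT-3B was 2.13-fold higher and NiR to NADH-GOGAT-3B 1.81-fold higher, also without overlap and so in 3 of 3 pairs under any pairing. Each of the 3 had the smallest exact permutation p of 0.1 and an adjusted p of 0.256, and 39.0% of all 300 ratios did not overlap between the lines in stems. With limma over the 300 ratios, a test added after the data had been seen, the adjusted p was 0.0578 for GDH, 0.0774 for GS2 and 0.139 for NiR over NADH-GOGAT-3B, with log2 differences of 1.34, 1.09 and 0.85 (standard errors 0.34, 0.34 and 0.35). By that test 6.0% of the 300 ratios passed in stems, and none of the 6 ratios among the 4 genes, of which these 3 had an unadjusted p under 0.05. The 3 share NADH-GOGAT-3B and so are not separate results. All 300 ratios are built from 25 genes, while limma pools their spread as separate rows, so its p-values for ratios are approximate. How many of the 300 ratios had an unadjusted p under 0.05 was not counted. Without the Rht-B1b stem of replicate 1 the 3 log2 differences were 0.96, 0.71 and 0.44. The ratios among GDH, GS2 and NiR overlapped between the lines, with log2 differences of -0.24 for NiR to GS2, 0.25 for GDH to GS2 and -0.49 for NiR to GDH (exact permutation p of 0.4, 0.6 and 0.3).

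In flag leaves all 4 genes overlapped between the lines. Mean levels in Rht-B1b were 1.25 times those in Rht-B1a for GDH, 1.23 times for GS2, 1.02 times for NiR and 0.977 times for NADH-GOGAT-3B. The log2 differences were 0.35 for GDH and 0.34 for GS2 (adjusted p = 0.280 from limma for each), 0.048 for NiR and -0.038 for NADH-GOGAT-3B (adjusted p = 0.938 from limma for each). Their 95% intervals ran from -0.013 to 0.71 for GDH, from -0.046 to 0.73 for GS2, from -0.30 to 0.40 for NiR and from -0.44 to 0.36 for NADH-GOGAT-3B. GDH and GS2 were higher in Rht-B1b in 3 of 3 pairs, taken by consecutive numbers, which were not shown to pair the samples. With actin held constant, 20 of the 25 genes had a leaf difference above 0, and genes higher in every pair were not counted. Without 1 pair the leaf difference ran from 0.18 (without replicate 3) to 0.43 for GS2 and from 0.25 to 0.44 for GDH. The median was 0.092 over the 25 genes and 0.19 over the 4. Of the 25 genes 4.0% passed limma's threshold in leaves and 4.0% had lines that did not overlap, and none of the 4 was among them. An unadjusted p under 0.05 from limma was found for 3 of the 25 genes and for none of the 4. Relative to the geometric mean of 22 genes NiR was at -0.015.

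The 6 ratios also overlapped between the lines in leaves, with exact permutation p from 0.3 to 1.0, where 16.0% of the 300 ratios did not overlap and 16.0% passed with limma. GDH to GS2 was the closest, at 0.00370, 0.00325 and 0.00448 in Rht-B1a leaves and 0.00360, 0.00421 and 0.00360 in Rht-B1b leaves. Its log2 difference was 0.0064, with an interval of -0.45 to 0.46 from limma, which gave every ratio in leaves the same standard error of 0.23.

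Whether Rht-B1b acted differently on these genes in stems and in leaves was tested in 1 limma fit of 12 samples. The stem effect minus the leaf effect was 0.47 for GDH (standard error 0.28, adjusted p = 0.219), 0.28 for NiR (standard error 0.24, adjusted p = 0.383), 0.22 for GS2 (standard error 0.28, adjusted p = 0.554) and -0.49 for NADH-GOGAT-3B (standard error 0.32, adjusted p = 0.237 from limma). None of the 4 passed or had an unadjusted p under 0.05. Of the 25 genes 12% passed and 10 had an unadjusted p under 0.05. Relative to the geometric mean of 22 genes, NiR and GS2 turned direction, at -0.11 and -0.17, and NADH-GOGAT-3B was at -0.88 (adjusted p = 0.0627 from limma). Without replicate 1, and scaled to actin, NADH-GOGAT-3B was at -0.013 (adjusted p = 0.959 from limma). Among the 6 ratios of the 4 genes the largest such difference was that of GDH to NADH-GOGAT-3B at 0.95 (standard error 0.41, adjusted p = 0.125 from limma), and 11.7% of the 300 ratios passed.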

How the data were processed

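Per the labels, total RNA was made into TruSeq stranded mRNA libraries. The authors matched reads at full identity to sequences of selected wheat genes with ArrayStar, whose version no source used here states, and deposited RPKM values, which they scaled to equal actin in all samples. Depth is unknown. The sheet's 27 lines hold 26 genes and 1 repeat. Its means, standard errors and p-values of the authors' own comparisons were not used, nor were its other sheets. Replicates came from different rows; the study gives a replicate both as pooled plants of 1 row and as 1 leaf and internode.

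Log2(RPKM + 1) values of 25 genes were compared with limma 3.58.1 in R 4.3.3, two-sided, Benjamini-Hochberg adjusted, threshold 0.05, without a filter. Lines were compared within a tissue with pairs of samples as a block, following the paired test of the study's methods. Since no label names the pairs, samples with consecutive numbers were paired. Tissues were compared in a fit of 4 groups without a block, because leaf and stem samples are not matched by name. Ratios were tested by exact permutation in Python 3.11.15. Fits were tested on simulated data. The named genes were the 4 enzymes, actin, GAPC8 and, for each enzyme, the 2 genes with the highest r; rbcS and rbcL served as markers. The members, lists and tests were chosen with earlier results of these data known. Alternatives were other pseudocounts, a filter, other scalings, samples left out and fits with and without the block.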

Additional observations from a re-analysis of the deposited data

How the results depend on the processing

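NiR, GS2, NADH-GOGAT-3B and GDH passed the threshold between leaf and stem, with unchanged direction, in each of 18 alternatives in Rht-B1a, in Rht-B1b and over both lines, while 16 to 23 of 25 genes passed. Between the lines in stems, 0 of the 4 genes passed as reported. This became 1 without the replicate block, 1 without a pseudocount, 1 with a mean of at least 500 RPKM and 2 with both tissues in 1 fit, and leaving out a pair gave 0 to 1. The gene that passed was GDH, with adjusted p from limma of 0.0255, 0.0391, 0.0465 and 0.00588 in that order and 0.00588 to 0.653 over its 11 alternatives, joined by GS2 (adjusted p = 0.0299) with both tissues in 1 fit. The samples of a pair deviated from their line means with correlations of -0.36, 0.047 and 0.29 in stems and 0.53, -0.11 and 0.76 in leaves, so the numbers were not shown to pair the samples, and the block changed no other call of the 4 genes.

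Over the 25 genes, 8 passed in stems, against 0 relative to the geometric mean of 22 genes, 0 relative to the median gene, 14 with both tissues in 1 fit, 13 without a pseudocount and 0 to 5 without a pair. In leaves 1 passed, against 0 with a pseudocount of 10, 0 with one of 100, 0 with a mean of at least 500 RPKM, 2 with either other scaling and 1 to 2 without a pair. Between leaf and stem over both lines, 13 rose and 6 fell with actin, against 11 and 12 relative to the geometric mean and 11 and 9 relative to the median gene. For the difference between tissues in the effect of Rht-B1b, 3 genes passed, and 0 to 1 without a pair.

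Some differences between the lines turned direction. The largest as reported was GS2 in stems, at 0.56. That value was itself the median of the 25 genes, so scaling to the median gene removes nearly all of it in advance. With the geometric mean and with the median gene, NiR was at -0.13 and -0.24 in stems, -0.015 and -0.12 in leaves and -0.11 and -0.017 in the difference between tissues. GS2 was at -0.0058 in stems with the median gene, and at -0.17 and -0.074 in the difference between tissues with the geometric mean and the median gene. Without a pair, the leaf difference ran from -0.048 to 0.12 for NiR and from -0.16 to 0.13 for NADH-GOGAT-3B. Without a sample, the line difference of GDH to GS2 ran from -0.043 to 0.48 in stems and from -0.10 to 0.13 in leaves, that of NiR to NADH-GOGAT-3B in leaves from -0.20 to 0.32 and that of NiR to GS2 in leaves from -0.49 to 0.0097. The tissue difference of GDH to NADH-GOGAT-3B ran from -0.090 to 0.27. That of NiR to GS2 ran from -0.51 to -0.26 and passed without replicate 3 of the Rht-B1b stems (adjusted p = 0.0472, exact permutation) or without replicate 3 of the Rht-B1a leaves (adjusted p = 0.0122, exact permutation). The causes were not tested.

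Depth is unknown, 3 replicates per group limit what can be seen between the lines, and actin cannot be checked against values before scaling. With a mean of at least 500 RPKM, NADH-GOGAT-3B was not tested in leaves.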
